A study of Rattus norvegicus with 19 samples.

Results

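The genes described here are the neurotrophin gene Bdnf (ENSRNOG00000047466), its receptor gene Ntrk2 (ENSRNOG00000018839) and 3 genes of NMDA receptor subunits, Grin1 (ENSRNOG00000011726), Grin2a (ENSRNOG00000033942) and Grin2b (ENSRNOG00000008766). They were chosen by Ensembl ID as 5 of the 32883 gene IDs in the count table, and all 5 were among the 15372 IDs kept by the filter on low counts. The table gives IDs without names, and the symbols come from the list by which the genes were chosen. The symbol table used here matched 0 of the table's IDs, so it neither backed nor contradicted the pairing. RNA was sequenced from brain tissue of 19 female Wistar rats, which the series text places in the amygdala. All 19 daughters ate chow. The groups differ in what their fathers had met: 5 daughters had ELS-HFD fathers (early life stress and a high-fat diet), 4 had HFD fathers (high-fat diet), 5 had ELS fathers (early life stress, described in the series text as separation from the mother) and 5 had control fathers. The daughters had passed through an elevated plus maze at postnatal day 57 ± 1, per the labels, and their age when the tissue was taken is not given in the sources used here. The design text mentions males, but every sample is labelled as a female, and the labels were followed. Neither father nor litter is given in the labels. The animals may include sisters, and the p-values rest only on the spread among them.

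As background, BDNF is released by neurons in an activity-dependent way and binds the receptor tyrosine kinase TrkB, the product of Ntrk2. TrkB exists as a full-length kinase in neurons and as a truncated form that is abundant in astrocytes. NMDA receptors are glutamate-gated calcium channels that need the GluN1 subunit (Grin1) and take GluN2 subunits such as GluN2A (Grin2a) and GluN2B (Grin2b) beside it. In the forebrain GluN2B prevails early in life and GluN2A is added as circuits mature, and both receptor systems are known for their part in fear learning in the amygdala.

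Transcription of Bdnf starts at several alternative first exons, and the deposited count of a gene sums all of them. RefSeq promoter sequences (build GRCr8, not the Rnor_6.0 build of the counts) were available for 2 of the genes, with 6 start sites of Bdnf and 1 of Grin1. The 250 bases before each start were searched on both strands for TGACG, the half-site of the cAMP response element that CREB binds, which reads CGTCA on the other strand. Of the 33469 windows in the promoter table, 18.2% held it. It was present before 1 of the 6 Bdnf starts and before the Grin1 start, and these 2 windows are printed to show where it lies, with the matches in capitals and all else in lower case. The Bdnf window is chr3:116637608-116637857 on the plus strand and has a match that begins 35 bases before the start. The Grin1 window is chr3:28528755-28529004 on the minus strand and has 2 matches, beginning 172 and 10 bases before the start. A match is a run of letters, and binding was not measured.
Bdnf: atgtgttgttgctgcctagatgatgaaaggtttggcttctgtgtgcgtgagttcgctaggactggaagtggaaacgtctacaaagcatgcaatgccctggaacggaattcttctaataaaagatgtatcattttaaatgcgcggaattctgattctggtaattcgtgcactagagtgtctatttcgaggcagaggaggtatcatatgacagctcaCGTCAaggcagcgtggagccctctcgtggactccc
Grin1: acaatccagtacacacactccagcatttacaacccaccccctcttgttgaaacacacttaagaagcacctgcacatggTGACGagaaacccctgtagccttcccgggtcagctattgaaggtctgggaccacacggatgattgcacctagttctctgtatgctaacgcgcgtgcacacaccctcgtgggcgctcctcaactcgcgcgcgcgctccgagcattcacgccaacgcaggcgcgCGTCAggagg

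The libraries held 7034837 to 20266594 counts (median 14027828). On the first principal component of log2 CPM (the count scaled to the total of its library), which held 32.9% of the variance, HFD replicate 1 scored 113.7, ELS-HFD replicate 2 scored 49.2 and ELS-HFD replicate 3 scored 47.8. The other 16 libraries scored between -29.0 and 10.6. The 10 most abundant IDs took 14.81% to 25.83% of the counts in these 3 libraries and 9.0% to 13.86% in the other 16. Markers of cell types could not be looked up, since the IDs have no names, and RNA quality is not given in the labels. In bulk tissue, fewer cells of a type and less RNA per cell cannot be told apart.

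Across the groups, none of the 5 genes passed the test in any of 7 comparisons, at a Benjamini-Hochberg adjusted p under 0.05 over all IDs in edgeR's quasi-likelihood test. The same test called 0 of the 15372 IDs, or 0%, in every one of the 7. At an unadjusted p under 0.05 there were 4 of the 35 gene tests: 2 of 5 genes in ELS-HFD against ELS, where 19.8% of all IDs were past it, 1 of 5 in paternal HFD averaged over early life (24.3% of all IDs), and 1 of 5 in ELS-HFD against control (4.18%). No gene was past it in HFD against control (7.79% of all IDs), ELS against control (4.35%), ELS-HFD against HFD (3.38%) or the interaction (5.13%). The number of IDs behind each of these shares moved by over 1.5 times with some single libraries left out. The comparisons share libraries, those against control the control libraries. Ranked by group mean, neighbouring groups did not pass this test for any of the 5 genes. The levels of the 5 genes in every library are plotted by group.

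**Figure D1:**
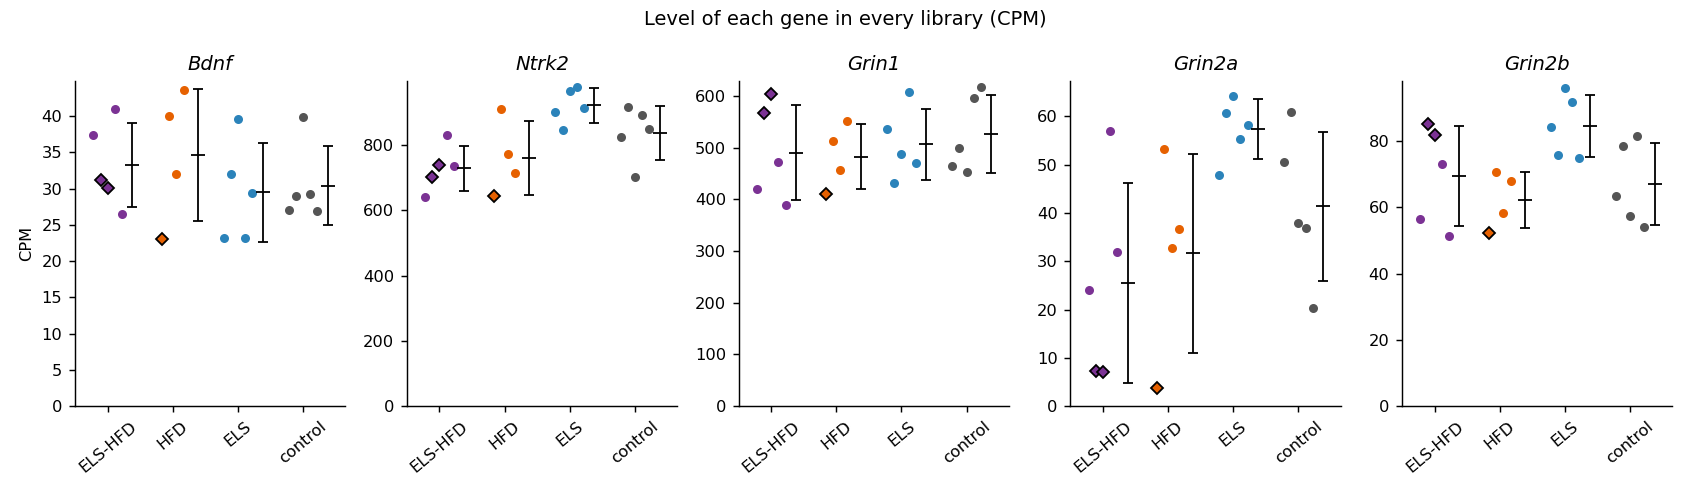
Level of each gene in CPM from column sums (vertical axes start at 0), 1 point per library by group, with the group mean and SD in black and the 3 libraries that stood apart on the first principal component as outlined diamonds. Grin2a was lowest in those 3 libraries, at 3.76 to 7.25 CPM. Ntrk2 reached at most 830.2 CPM in ELS-HFD and at least 845.9 CPM in ELS, and 7.03% of all IDs did not overlap between these groups.

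Bdnf, the ligand, had group means that lay closer together than the libraries within a group. Its level in ELS-HFD replicates 1 to 5 was 37.4, 31.1, 30.1, 40.9 and 26.5 CPM, and in HFD replicates 1 to 4 it was 23.05, 39.95, 32.0 and 43.6 CPM. HFD replicate 1 held the lowest level of all 19 libraries and HFD replicate 4 the highest, so by column sums this group spanned the whole range. With library sizes adjusted by TMM, edgeR's scaling between libraries, HFD replicate 1 was at 29.84 CPM, and the lowest was ELS replicate 1 at 21.89 CPM. In ELS replicates 1 to 5 the level was 23.2, 32.0, 39.5, 23.2 and 29.5 CPM, and in control replicates 1 to 5 it was 27.0, 29.0, 39.9, 29.3 and 26.9 CPM. The groups overlapped in every pair compared. Means were 33.2 ± 5.82 CPM in ELS-HFD (SD, n = 5), 34.65 ± 9.125 CPM in HFD (SD, n = 4), 29.5 ± 6.82 CPM in ELS (SD, n = 5) and 30.4 ± 5.42 CPM in control (SD, n = 5). These means differed by less than 1 SD. For Bdnf the comparison with the smallest unadjusted p was paternal HFD averaged over early life, with a log2 fold change of 0.24 ± 0.13 (SE) and an edgeR adjusted p of 0.247. In HFD against control the log2 fold change of Bdnf was 0.27 ± 0.19 (SE, adjusted p = 0.678), and in ELS against control it was -0.08 ± 0.18 (SE, adjusted p = 0.935). Bdnf was counted by only 219 to 659 reads a library, and the genes are compared here only between libraries, since no transcript lengths of the files' annotation were at hand.

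Ntrk2, the gene of the TrkB receptor, separated the ELS-HFD daughters from the ELS daughters in every library, by a modest margin. In ELS-HFD replicates 1 to 5 it was at 639, 701, 737, 830.2 and 734 CPM, against 899.8, 846, 966, 978 and 914 CPM in ELS replicates 1 to 5. The highest ELS-HFD library lay just under the lowest ELS library. The 2 groups did not overlap for 1 of the 5 genes, and for 7.03% of all IDs. All 5 genes overlapped in ELS-HFD against control (where 1.18% of all IDs did not), ELS-HFD against HFD (0.722%), ELS against control (3.30%) and HFD against control (2.69%). The log2 fold change of ELS-HFD against ELS was -0.30 ± 0.09 (SE), with an unadjusted p of 0.00445 and an adjusted p of 0.206 (edgeR), which misses the threshold. Over 27 alternative settings this adjusted p ran from 0.0421 to 0.4175 and the log2 fold change of Ntrk2 from -0.36 to -0.26. The lowest was found without HFD replicate 1, which belongs to neither group. There edgeR called 2400 IDs, or 15.4%, and Ntrk2 was the 1 of the 5 genes among them. An edgeR fit to ELS-HFD and ELS alone, which also lacks that library, called 0 of 14652 IDs, with an adjusted p of 0.0763 for Ntrk2. Why these fits differ was not tested. Without all 3 libraries that stood apart, the log2 fold change of Ntrk2 was -0.30 ± 0.11 (SE, adjusted p = 0.176), so its size did not rest on them.

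In HFD replicates 1 to 4 Ntrk2 was at 644, 909, 772 and 713 CPM, and in control replicates 1 to 5 at 824, 915, 701.0, 890.5 and 849.6 CPM. These groups overlapped each other. HFD replicate 1 was the lowest of its group by column sums, but at 833 CPM once its library size was adjusted by TMM. Group means of Ntrk2 were 728 ± 69.3 CPM in ELS-HFD (SD, n = 5), 759 ± 113 CPM in HFD (SD, n = 4), 921 ± 53.5 CPM in ELS (SD, n = 5) and 836 ± 83.35 CPM in control (SD, n = 5). ELS-HFD against control gave a log2 fold change of -0.20 ± 0.09 (SE, unadjusted p = 0.0454, adjusted p = 0.839), and paternal HFD averaged over early life gave -0.17 ± 0.07 (SE, unadjusted p = 0.0242, adjusted p = 0.167), both from edgeR. HFD against control was at -0.03 ± 0.10 (SE, adjusted p = 0.92). Whether the diet's difference in Ntrk2 depends on the father's early life was tested as the interaction, which was -0.27 ± 0.13 (SE, unadjusted p = 0.0623, adjusted p = 0.972).

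Grin1, the subunit that every NMDA receptor contains, varied little between groups. In ELS-HFD replicates 1 to 5 it was at 421, 566, 603, 472 and 389.6 CPM, and in HFD replicates 1 to 4 at 410.0, 513, 456 and 552 CPM. The highest values in these groups, those of ELS-HFD replicates 2 and 3, came from libraries that stood apart on the first component. In ELS replicates 1 to 5 the level was 536, 431, 487, 607 and 469.7 CPM, against 464, 499.7, 454, 596 and 617 CPM in control replicates 1 to 5. The 4 groups overlapped throughout, with means of 490.4 ± 91.85 CPM in ELS-HFD (SD, n = 5), 483 ± 62.45 CPM in HFD (SD, n = 4), 506 ± 67.9 CPM in ELS (SD, n = 5) and 526 ± 76.05 CPM in control (SD, n = 5). The edgeR log2 fold changes of Grin1 in the 7 comparisons lay between -0.10 and 0.02, each smaller than its SE, and adjusted p-values ran from 0.8715 to 0.9997. Without the 3 libraries that stood apart, ELS-HFD against control was -0.30 ± 0.13 (SE, unadjusted p = 0.0292, adjusted p = 0.9415) and ELS-HFD against ELS was -0.21 ± 0.13 (SE, adjusted p = 0.379).

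Grin2a, the GluN2A subunit gene, was the most variable of the 5 by a wide margin over all 19 libraries. Its spreads were wide within ELS-HFD, HFD and control and narrow within ELS. In ELS-HFD replicates 1 to 5 it was at 24.1, 7.25, 6.98, 56.96 and 32.0 CPM, and in HFD replicates 1 to 4 at 3.76, 53.3, 32.8 and 36.8 CPM. The 3 lowest values came from 53, 51 and 103 reads in HFD replicate 1, ELS-HFD replicate 2 and ELS-HFD replicate 3, the libraries that stood apart on the first component. Exact Poisson 95% intervals, which cover counting error only, were 2.815 to 4.92 CPM in HFD replicate 1, 5.40 to 9.53 CPM in ELS-HFD replicate 2 and 5.69 to 8.46 CPM in ELS-HFD replicate 3. In ELS replicates 1 to 5 Grin2a was at 47.9, 60.8, 64.3, 55.4 and 58.25 CPM, and in control replicates 1 to 5 at 50.6, 60.9, 37.98, 36.9 and 20.3 CPM. The ELS libraries were close together, and control replicate 5 was the lowest outside the 3 libraries. Of 14329 IDs with a mean of at least 1 CPM, 98.1% had a smaller SD of log2 CPM than Grin2a, whose SD was 1.12. The SD was 0.299 for Bdnf, 0.166 for Ntrk2, 0.201 for Grin1 and 0.259 for Grin2b, against a median of 0.311 over those IDs.

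Group means of Grin2a were 25.5 ± 20.7 CPM in ELS-HFD (SD, n = 5), 31.65 ± 20.6 CPM in HFD (SD, n = 4), 57.3 ± 6.21 CPM in ELS (SD, n = 5) and 41.4 ± 15.35 CPM in control (SD, n = 5). ELS-HFD, HFD and control overlapped one another, and 4 of the 5 ELS-HFD libraries lay below all ELS libraries. ELS-HFD against ELS gave an edgeR log2 fold change of -1.13 ± 0.52 (SE, unadjusted p = 0.0428, adjusted p = 0.245). Without the 3 libraries that stood apart it was -0.57 ± 0.30 (SE, unadjusted p = 0.07275, adjusted p = 0.311), a smaller fold change than with them. Over all settings the adjusted p ran from 0.07085 to 0.449 for this comparison of Grin2a. HFD against control had a log2 fold change of -0.35 ± 0.55 (SE, adjusted p = 0.841), and 0.01 ± 0.29 (SE, adjusted p = 0.9997) without the 3. ELS-HFD against control had one of -0.69 ± 0.52 (SE, adjusted p = 0.839), and -0.13 ± 0.29 (SE, adjusted p = 0.9855) without the 3. These fold changes of Grin2a were thus closer to 0 without the 3, and what sets the libraries apart was not tested. Without ELS-HFD replicate 4, the highest of its group, they were further from 0, at -1.24 ± 0.51 (SE, unadjusted p = 0.02517, adjusted p = 0.464) in ELS-HFD against control and -1.68 ± 0.51 (SE, unadjusted p = 0.00435, adjusted p = 0.0868) in ELS-HFD against ELS. With 1 library left out at a time, the log2 fold change of Grin2a ran from -1.24 to -0.45 in ELS-HFD against control and from -1.68 to -0.89 in ELS-HFD against ELS.

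Grin2b, the GluN2B subunit gene, did not share the low values of Grin2a in ELS-HFD replicates 2 and 3. In ELS-HFD replicates 1 to 5 it was at 56.35, 85.15, 81.8, 72.9 and 51.3 CPM, and in HFD replicates 1 to 4 at 52.4, 70.6, 58.3 and 67.9 CPM. ELS-HFD replicates 2 and 3 were thus the highest of their group in Grin2b while they were the lowest in Grin2a. HFD replicate 1 was the lowest of its group in both genes by column sums, but its Grin2b was at 67.86 CPM with TMM. In ELS replicates 1 to 5 the level was 84.4, 75.9, 95.9, 91.7 and 74.95 CPM, against 63.3, 78.5, 57.5, 81.5 and 54.1 CPM in control replicates 1 to 5. The ELS libraries lay high in the range, and 2 control libraries reached into it. Means were 69.5 ± 15.1 CPM in ELS-HFD (SD, n = 5), 62.3 ± 8.44 CPM in HFD (SD, n = 4), 84.6 ± 9.29 CPM in ELS (SD, n = 5) and 67.0 ± 12.4 CPM in control (SD, n = 5). ELS against control had a log2 fold change of 0.30 ± 0.15 (SE, unadjusted p = 0.056, adjusted p = 0.913) in edgeR. ELS-HFD against ELS was -0.24 ± 0.15 (SE, adjusted p = 0.338), and without the 3 libraries that stood apart it was -0.46 ± 0.15 (SE, unadjusted p = 0.00847, adjusted p = 0.156).

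**Figure D2:**
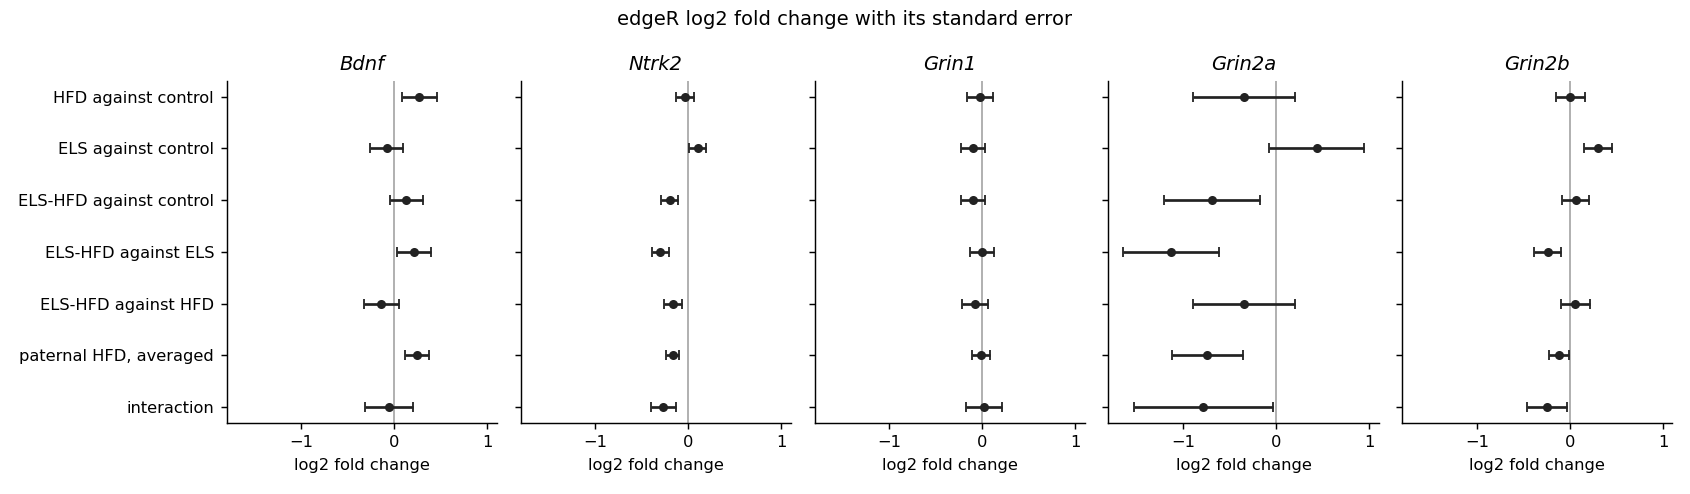
edgeR log2 fold change of each gene (points) with its standard error (bars) in the 7 comparisons, which share libraries. A positive value means higher in the group named first, or with paternal HFD where it is averaged over early life. For the interaction, it means that ELS-HFD against ELS had a higher log2 fold change than HFD against control. The widest bars are those of Grin2a, which reached -1.13 ± 0.52 in ELS-HFD against ELS, and the Ntrk2 value furthest from 0 was -0.30 ± 0.09 in the same comparison.

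The ratio of Grin2a to Grin2b within a library, which does not depend on library size, set the same 3 libraries apart. It is a ratio of counts and is not corrected for the lengths of the transcripts. It was 0.428, 0.0851, 0.0853, 0.781 and 0.624 in ELS-HFD replicates 1 to 5, and 0.0717, 0.755, 0.563 and 0.542 in HFD replicates 1 to 4. In ELS libraries it ran from 0.568 to 0.8004 with a median of 0.671, and in control libraries from 0.376 to 0.7997 with a median of 0.661. Outside the 3 libraries the ratio kept within a 2.13-fold range over 16 animals, and across all 19 it spanned 11.2-fold. Its log2 mean was -1.87 ± 1.56 in ELS-HFD (SD, n = 5), -1.48 ± 1.56 in HFD (SD, n = 4), -0.56 ± 0.22 in ELS (SD, n = 5) and -0.77 ± 0.49 in control (SD, n = 5), given as a description with no test. Relative to Grin1, the count of Grin2a was 0.917% in HFD replicate 1, 1.28% in ELS-HFD replicate 2 and 1.16% in ELS-HFD replicate 3. In the other libraries it ran from 3.29% (control replicate 5) to 14.1% (ELS replicate 2). The count of Grin2b was 12.78%, 15.04% and 13.57% of Grin1 in the same 3 libraries, in that order, and 8.758% to 19.68% in the other libraries.

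**Figure D3:**
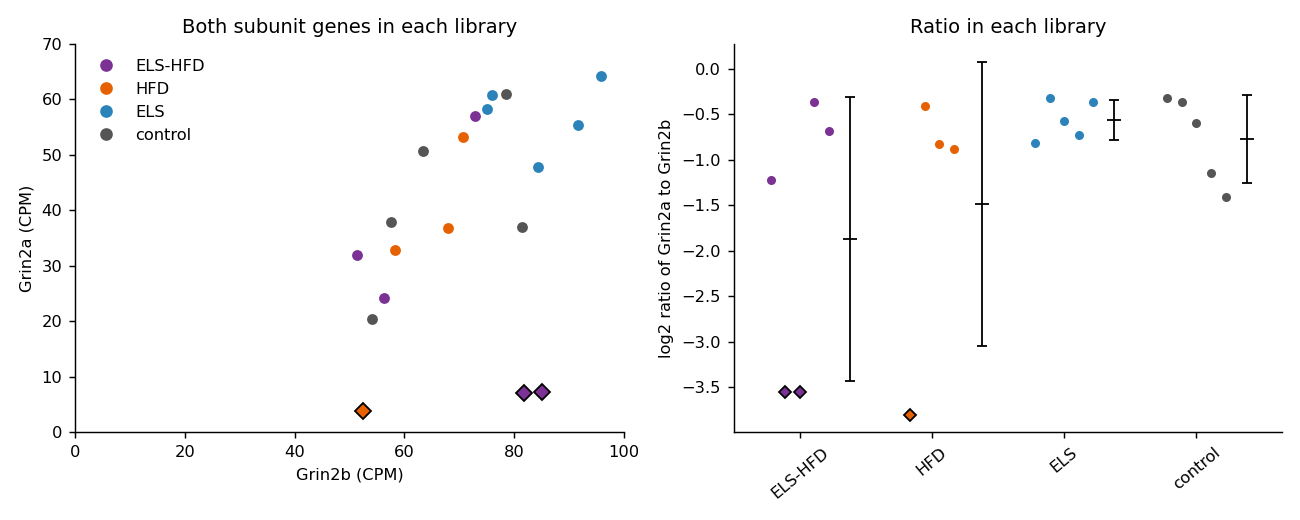
Left, Grin2a against Grin2b in CPM, 1 point per library coloured by group; right, log2 of their ratio by group with the group mean and SD in black. The outlined diamonds are HFD replicate 1 and ELS-HFD replicates 2 and 3, with ratios of 0.0717, 0.0851 and 0.0853, below the range of 0.376 to 0.8004 in the other 16 libraries.

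Some of the genes varied together from animal to animal. Pearson's r and Spearman's rho of log2 CPM were computed for the 10 pairs of genes, over 19 libraries or, for pairs with Grin2a, over the 16 that did not stand apart, with two-sided permutation p-values adjusted over the 10 pairs. Grin2a and Grin2b correlated at r = 0.763 (adjusted p = 0.0057) and rho = 0.75 (adjusted p = 0.0118) by permutation over the 16. Without the 2 libraries farthest from the median of Grin2a, r was 0.697, and for deviations from the group means it was 0.628 (permutation, adjusted p = 0.04). The 3 libraries left out form a separate cluster in Grin2a itself, and r over all 19 is not given here. Of these, ELS-HFD replicates 2 and 3 had the lowest Grin2a of their group (7.25 and 6.98 CPM) but the highest Grin2b (85.15 and 81.8 CPM). HFD replicate 1 was the lowest of its group in both by column sums. The r of 0.763 thus describes the 16 libraries only. Since the 3 were left out for their values of Grin2a, the p-values of pairs with Grin2a do not test a relation over all 19. Ntrk2 correlated with Grin2b at r = 0.634 (adjusted p = 0.0215) and rho = 0.581 (adjusted p = 0.0288), with r = 0.509 without the 2 farthest libraries. Ntrk2 correlated with Grin2a at r = 0.651 (adjusted p = 0.0215) and rho = 0.674 (adjusted p = 0.026), with r = 0.545 without the 2 farthest. For deviations from the group means, r was 0.533 for Ntrk2 and Grin2b (adjusted p = 0.0662) and 0.497 for Ntrk2 and Grin2a (adjusted p = 0.124), so neither passed within groups. Grin1 and Grin2b had r = 0.552 (adjusted p = 0.0414) and rho = 0.577 (adjusted p = 0.0288), r = 0.705 without the 2 farthest and r = 0.666 (adjusted p = 0.0234) for deviations, but r = 0.429 (adjusted p = 0.193) over the 16 libraries. Bdnf had an r between -0.151 and 0.028 with the other 4 genes, and none passed. Over the 16 libraries r was -0.403 (permutation, adjusted p = 0.199) for Bdnf and Ntrk2 and -0.25 (adjusted p = 0.496) for Bdnf and Grin1. With TMM-adjusted CPM, Grin2a and Grin2b still passed at r = 0.747 (permutation, adjusted p = 0.0093). The other pairs past the threshold did not, with adjusted p-values of 0.0535 for Ntrk2 and Grin2a, 0.0574 for Ntrk2 and Grin2b, and 0.103 for Grin1 and Grin2b.

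Levels of the 5 genes were also set against the first principal component over the 16 libraries, a relation examined after the values were seen. The component was computed from all kept IDs, the 5 genes included. Of 14329 IDs with a mean of at least 1 CPM, 5.72% had an r with it beyond 0.8 in either direction, on TMM-adjusted log2 CPM. On that scale r was -0.873 for Grin2a, -0.826 for Grin2b and -0.735 for Ntrk2, and 1.86%, 4.03% and 10.7% of the IDs had an r at least as far from 0 as these, in that order. On CPM from column sums its r was -0.898 with Grin2a, -0.878 with Grin2b and -0.815 with Ntrk2 (two-sided permutation, adjusted p = 5e-05, 5e-05 and 0.0003 over 5 tests; the unadjusted 1e-05 of Grin2b is the smallest that 100000 permutations can give). Spearman's rho was -0.8 for Grin2a, -0.856 for Grin2b and -0.806 for Ntrk2, with adjusted permutation p-values of 0.000567, 0.00015 and 0.000567. Without the 2 libraries farthest from the median score, r was -0.832 for Grin2a, -0.864 for Grin2b and -0.868 for Ntrk2, and for deviations from the group means it was -0.858, -0.755 and -0.691 in that order. Bdnf (r = 0.253, permutation adjusted p = 0.34) and Grin1 (r = -0.265, permutation adjusted p = 0.34) did not pass. These p-values test against an r of 0, whereas the median size of r over all IDs was 0.362 on TMM-adjusted log2 CPM. They therefore cannot show that these genes follow the component more than other IDs do, for which the shares above are the measure. All 5 ELS libraries scored from -29.0 to -19.8 on the component, whereas ELS-HFD replicates 1, 4 and 5 scored 10.6, -16.9 and -2.2, so the component moved with the contrast in which the fold changes of Ntrk2 and Grin2a were furthest below 0, and its part in that contrast was not tested. In the 3 libraries beyond this range Grin2a was lower still, whereas Grin2b and Ntrk2 stayed within the levels of the other 16.

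**Figure D4:**
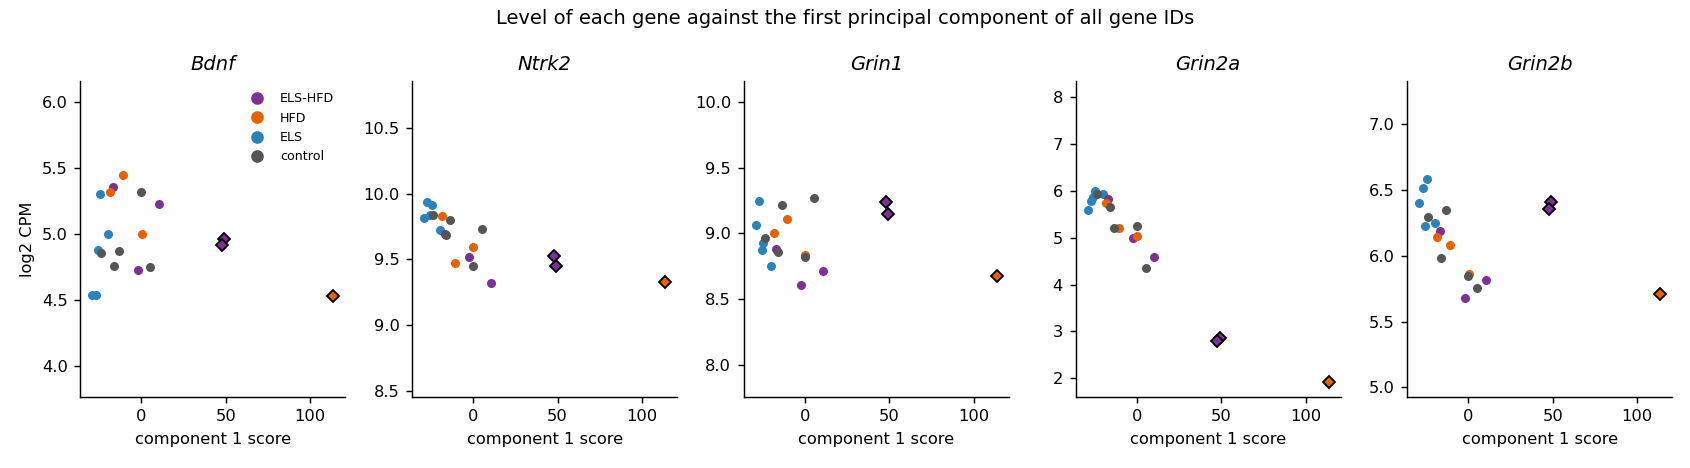
log2 CPM of each gene against the score of the library on the first principal component of all kept gene IDs, coloured by group, with the 3 libraries that stood apart as outlined diamonds; each vertical axis has its own range. Grin2a was lower at higher scores (r = -0.898 over the 16 other libraries), as were Grin2b (r = -0.878) and Ntrk2 (r = -0.815), whereas Bdnf and Grin1 had r = 0.253 and -0.265.

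Likeness to other genes was measured as Pearson's r of log2 CPM over the 19 libraries, among 14328 other IDs with a mean of at least 1 CPM. Grin2a had 2022 IDs at r over 0.8 and 1015 at r under -0.8, and over the 16 libraries 352 and 22. Over the 19, Bdnf had 25 and 5, Ntrk2 had 3 and 2, Grin1 had 36 and 10, and Grin2b had 0 and 2. Over the 16, Bdnf had 105 and 27, Ntrk2 had 170 and 92, Grin1 had 63 and 37, and Grin2b had 295 and 87. Grin2a thus had many more such IDs than the other 4 genes with the 3 libraries included, and about as many as Grin2b without them. The ID most like Bdnf was ENSRNOG00000007951 (r = 0.897), and the ID most like Grin1 was ENSRNOG00000019164 (r = 0.919), both without a name in the sources used here. As these were picked as the highest of 14328 values, they are given as a description.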

How the data were processed

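The file the authors deposited holds raw counts, as whole numbers for each Ensembl gene ID, as its values show. The submitters' processing notes name Rnor_6.0 and DESeq2. How reads were aligned, and whether strand was used in counting, is not given in the sources used here. About 400 ng of RNA per library was enriched for polyadenylated RNA and primed at random, per the labels' protocols. The number in a sample's description named its column.

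Levels are CPM from column sums. Fits used R 4.3.3 and edgeR 4.0.16: filterByExpr, TMM, and 1 quasi-likelihood fit over the 19 libraries with group as the only term, tested in 7 contrasts with Benjamini-Hochberg adjustment over 15372 IDs. The SE was the absolute log2 fold change over the root of the F statistic. The procedure was tested on simulated counts that held no outlying libraries, so that test does not cover data with libraries that stand apart. Alternatives used DESeq2 1.42.0, limma 3.58.1, other scalings, no filter, a replicate block, pairs of groups alone, and libraries left out. Principal components used log2 CPM with a prior count of 2. The rule for named genes covers the 5 genes and the IDs most like Bdnf and Grin1. Lists of pathway and marker genes need symbols and were not used. For pairs with Grin2a, correlations left out the 3 libraries that form a separate cluster. The genes, lists and tests were chosen with earlier results of these data known.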

Additional observations from a re-analysis of the deposited data

Results flagged for a closer look

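Of 24 groups of values (the log2 CPM of 5 genes and the log2 ratio of Grin2a to Grin2b, in 4 groups each), 2 had an extreme value by Dixon's criterion, which marks about 1 group in 20 by chance. Bdnf in control replicate 3 was at 5.32 as log2 CPM, above the other control libraries. The log2 ratio of Grin2a to Grin2b in HFD replicate 1 was -3.80, below the other HFD libraries. In ELS-HFD, where 2 of the 5 libraries had low ratios, neither was marked, since each lies close to the other.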

How the results depend on the processing

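The number of IDs called was 0 in each of the 7 comparisons and stayed 0 with DESeq2's size factors, with column sums, without the filter, with limma-voom, with the replicate number as a block and without the 3 libraries that stood apart. With the DESeq2 test it was 5 in HFD against control, 1 in ELS against control, 146 in ELS-HFD against ELS, 3 in ELS-HFD against HFD, 329 in paternal HFD averaged over early life and 5 in the interaction, with 0 in ELS-HFD against control. A fit to the 2 compared groups alone called 3 in HFD against control. Leaving out 1 library gave 0 to 2400 in ELS-HFD against ELS (2400 without HFD replicate 1, and 1 without ELS-HFD replicate 4), 0 to 2 in paternal HFD averaged over early life (2 without HFD replicate 2) and 0 to 12 in the interaction (12 without ELS replicate 5). The cause was not tested.

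Of the 35 log2 fold changes of the genes, 1 passed the threshold under 1 alternative: Ntrk2 in ELS-HFD against ELS, without HFD replicate 1. With column sums the median over all IDs in HFD against control was -0.0949, where TMM gave 0.0061, and Grin2b there was at -0.104 instead of 0.0023. Signs also turned for values near 0. Grin2b in HFD against control was -0.005 without the filter, -0.066 with the replicate block and -0.010 without the 3 libraries, where Grin2a was 0.010. Without those 3, Grin2b was -0.153 in ELS-HFD against control and -0.143 in ELS-HFD against HFD, and Grin1 was -0.172 in the interaction. Grin1 was 0.005 in ELS-HFD against ELS with DESeq2's size factors and with its test, 0.022 in ELS-HFD against HFD with column sums, and -0.007 in the interaction with limma-voom.

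Leaving out single libraries moved HFD against control between -0.102 and 0.030 for Ntrk2, -0.066 and 0.050 for Grin1, -0.719 and 0.012 for Grin2a, and -0.061 and 0.080 for Grin2b. Bdnf ran from -0.224 to 0.046 in ELS against control and from -0.186 to 0.084 in the interaction. Grin2b ran from -0.018 to 0.164 in ELS-HFD against control and from -0.021 to 0.162 in ELS-HFD against HFD. Grin1 ran from -0.097 to 0.086 in ELS-HFD against ELS, -0.174 to 0.009 in ELS-HFD against HFD, -0.058 to 0.032 in paternal HFD averaged over early life, and -0.076 to 0.106 in the interaction. Grin2a ran from -0.894 to 0.030 in ELS-HFD against HFD.

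Among correlations, r with TMM-adjusted CPM was 0.620 for Ntrk2 and Grin2a, 0.541 for Ntrk2 and Grin2b, and 0.473 for Grin1 and Grin2b, none of which then passed. For deviations from the group means it was 0.497 and 0.533 for the first 2 pairs and 0.093 for Bdnf and Ntrk2. Over the 16 libraries it was 0.429 for Grin1 and Grin2b and -0.110 for Bdnf and Grin2b, which was -0.037 with TMM. Single libraries left out gave 0.541 to 0.831 for Ntrk2 and Grin2a (0.541 and no longer past the threshold without ELS-HFD replicate 1), 0.467 to 0.758 for Grin1 and Grin2b, -0.256 to 0.013 for Bdnf and Grin1, -0.120 to 0.137 for Bdnf and Grin2a, -0.124 to 0.155 for Bdnf and Grin2b, and -0.226 to 0.278 for Grin1 and Grin2a.

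Replicate numbers showed no pairing of the libraries. Deviations of same-numbered libraries of different groups correlated at a median of -0.049, and 9 of 27 pairs were over 0.1. For libraries of different groups and different numbers the median was 0.004, and 36 of 108 pairs were over 0.1. With the replicate block the log2 fold change of Ntrk2 in ELS-HFD against ELS was -0.30. IDs at an unadjusted p under 0.05 numbered 3038 in that comparison. With 1 library left out they numbered 1804 (without ELS-HFD replicate 3) to 5137 (without HFD replicate 1) there, 587 (HFD replicate 1) to 2130 (HFD replicate 2) in HFD against control, 402 (control replicate 3) to 1429 (HFD replicate 1) in ELS against control, 342 (ELS-HFD replicate 2) to 2047 (HFD replicate 1) in ELS-HFD against control, 306 (ELS-HFD replicate 5) to 1930 (HFD replicate 1) in ELS-HFD against HFD, 2482 (HFD replicate 1) to 4849 in paternal HFD averaged over early life, and 550 to 3133 (HFD replicate 1) in the interaction. Group means of CPM moved by less than 1 SD under TMM. Leaving out 1 library cannot move the mean of its group by as much as 1 SD, so that measure does not test it. With 1 library left out, the mean of Grin2a ran from 17.59 to 30.08 CPM in ELS-HFD and from 24.45 to 40.95 CPM in HFD. Bdnf and Grin2a rest on the fewest reads.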
